A study of Homo sapiens with 30 samples.

Results

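The transcripts of 10 circadian clock genes, PER1, PER2, PER3, CRY1, CRY2, NR1D1, NR1D2, DBP, TEF and BHLHE40, were followed in A549 cells, an established human lung carcinoma line, after 24 h with extracts of Korean tonifying formulas. They were chosen by symbol as 10 of the 60675 gene rows of the count table, and all 10 were abundant enough to test. Cells received an ethanol extract of a formula (Sibjeondaebo-tang, Palmul-tang, Samul-tang or Sagunja-tang) at 20 µg/mL (low), 100 µg/mL (medium) or 500 µg/mL (high), or the DMSO vehicle. Palmul-tang combines the herbs of Samul-tang and Sagunja-tang, and Sibjeondaebo-tang adds further herbs to Palmul-tang. Each dose of Palmul-tang and Sibjeondaebo-tang had 3 libraries, as did the vehicle, each dose of Samul-tang had 2, and each dose of Sagunja-tang had 1 and so no replicate. The labels name no engineered allele and no other agent in any group. The sample labels give 0.1% DMSO and the series text 2%, and the counts do not settle which was used. The doses and the 24 h time are those of the labels. All groups were harvested at this single time and no synchronisation of the cells is described, so the values are levels and hold nothing on phase or rhythm.

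Depth was even over the 30 libraries, from 23986637 to 35159898 counts with a median of 32383996, and every member held at least 73 counts in every library. Levels are CPM (counts scaled to a common library total) over TMM-scaled library sizes, and levels of different genes are compared only per kilobase of annotated exon. Epithelial and A549 transcripts were present in all libraries, with KRT8 at 3350 to 4400 CPM and ALDH1A1 at 3857 to 5144 CPM. The lowest of those examined was EPCAM, at 17.6 to 24.3 CPM. CDKN2A, whose locus is deleted in this line, held 0 counts in 30 of 30 libraries, while the alveolar transcripts SFTPC (0 to 0.285 CPM) and NKX2-1 (0.356 to 1.32 CPM) were near 0. Of the 8 markers of blood, endothelial and fibroblast cells, DCN was highest at 4.12 to 6.89 CPM. CD14 was at 1.96 to 3.29 CPM, COL1A1 at 1.04 to 2.60 CPM and PECAM1 at 0.0937 to 0.433 CPM. PTPRC, CD3E, CDH5 and COL1A2 did not exceed 0.226 CPM. Whether replicates came from separate cultures is not stated, so SDs and p-values measure only how these libraries differ, which may be technical.

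The clock is a transcriptional feedback loop. CLOCK or its relative NPAS2 pairs with BMAL1 and binds E-boxes, and this raises transcription of the PER, CRY, NR1D, DBP, TEF and BHLHE40 genes. PER and CRY proteins repress the pair that induced them. NR1D1 and NR1D2 (REV-ERB alpha and beta) are nuclear receptors that repress BMAL1 through ROR elements, which the ROR receptors activate. DBP, TEF and HLF activate genes through D-boxes, where NFIL3 acts as a repressor, and BHLHE40 represses through E-boxes. Many of these genes also answer serum, glucocorticoid or stress signals, apart from time of day.

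The DNA letters of this loop can be read upstream of the members. RefSeq promoter windows (GRCh38.p14), from 250 bases before to 50 bases after a transcription start, were found for all 10 members, in 14 windows. Both strands were searched for the E-box CACGTG, a variant of it that reads CACGTT, the D-box consensus TTANGTAA with any base at N, and the ROR element TAGGTCA. No match in a member's window overlapped another. An E-box lay in a window of 4 of 10 members, the variant in 4, a D-box in 3 and a ROR element in 1, CRY2. By window these were 5, 4, 3 and 1 of 14. Of all 35116 windows in the RefSeq table, 7.256% held the E-box, 5.342% the variant, 2.176% the D-box and 1.848% the ROR element. Some word was present in 9 of 10 members (10 of 14 windows) and absent from the DBP window. The share of all windows with any of the 4 words was not computed, so this count is no result about the members. A match is a description of these letters and not evidence of binding.

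The following stretches show an upstream word, in capitals, for the 3 PER genes and for NR1D2 and TEF, where the stretch holds no annotated exon. PER1 (chr17:8152532-8152617, minus strand) has the E-box, beginning at position -173 from the start. PER2 (chr2:238288762-238288847, minus strand) has the E-box variant at -197. PER3 (chr1:7784074-7784161, plus strand) has a D-box at -177. NR1D2 (chr3:23945887-23945974, plus strand) has a D-box at -194 and an E-box at -155, and TEF (chr22:41367220-41367305, plus strand) an E-box at -195.
PER1: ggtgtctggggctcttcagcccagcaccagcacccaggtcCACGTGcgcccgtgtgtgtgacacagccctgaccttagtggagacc
PER2: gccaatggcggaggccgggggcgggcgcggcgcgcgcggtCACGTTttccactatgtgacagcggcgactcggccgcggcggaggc
PER3: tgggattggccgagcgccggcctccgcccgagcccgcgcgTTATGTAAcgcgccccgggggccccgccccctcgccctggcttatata
NR1D2: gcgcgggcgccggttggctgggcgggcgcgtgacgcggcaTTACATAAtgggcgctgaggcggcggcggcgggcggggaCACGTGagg
TEF: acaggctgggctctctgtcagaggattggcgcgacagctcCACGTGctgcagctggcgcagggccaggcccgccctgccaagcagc
Between the high and low doses of Sibjeondaebo-tang, PER2 fell, TEF rose, and PER1, PER3 and NR1D2 did not pass the test (values below). The TEF call was lost under 4 of its 11 alternatives. At the low dose against vehicle, PER1, PER3 and NR1D2 fell, and PER2 and TEF did not pass. Whether the words bear on these levels was not tested.

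Per kilobase of exon, the E-box repressor BHLHE40 (chr3:4979116-4985323) was the most abundant member, at a median of 18.3 CPM per kilobase over the 30 libraries. PER1 (chr17:8140472-8156506) and PER2 (chr2:238244038-238290102) followed at 11.7 and 11.4. NR1D1 (chr17:40092787-40100725), CRY1 (chr12:106991364-107093829) and CRY2 (chr11:45847118-45883248) had medians of 3.72, 3.50 and 2.23. DBP (chr19:48630030-48637438), NR1D2 (chr3:23945260-23980618), TEF (chr22:41367333-41399326) and PER3 (chr1:7784320-7845177) were lowest, at 1.39, 1.24, 0.835 and 0.349. Gene coordinates are on GRCh38 (GENCODE 29), and all 10 are protein-coding genes. Exons of NR1D1 and THRA share 263 bases on opposite strands, those of DBP and SPHK2 share 661, and those of PER3 and UTS2 share 868. The library kit marks strand, but whether reads were counted by strand is not given in the sources used here, so part of a member's count could belong to such a neighbour. UTS2 was near 0, at no more than 0.0570 CPM in any library, where PER3 was at 2.25 CPM or more. On the opposite strand, PER3 also shares 482 exon bases with Z98884.1, PER2 188 with AC012485.1, CRY1 94 with AC078929.1 and BHLHE40 4 with BHLHE40-AS1. PER1 shares 30 with AC129492.3 and 78 with MIR6883 on its own strand, where counting by strand would not separate them. The levels of these further neighbours were not examined.

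Most neighbouring groups overlapped when the 10 groups with replicates were ordered by a member's level. Each member had 9 pairs of neighbours, and the libraries were separate in no pair for CRY1, in 2 pairs for NR1D1 and in 1 pair for each of the other 8 members. The share of separate pairs over all genes was not computed, so these counts are no result about the members. A break here is a gap between 2 groups adjacent in mean, and libraries of other groups can cross it. For PER1, PER3, NR1D2 and DBP the break lay directly below the vehicle, which had the highest mean. In NR1D2, though, Sibjeondaebo-tang low replicate 3 (8.62 CPM) lay above all vehicle libraries (8.24 to 8.61 CPM). For PER2 the break lay above Sibjeondaebo-tang high, the lowest group, and for BHLHE40 it lay below Samul-tang high, the highest group. The break in CRY2 lay between Samul-tang medium and Samul-tang high, and that in TEF between Samul-tang medium and Samul-tang low. NR1D1 was separate between Sibjeondaebo-tang high and Samul-tang medium, and again between Samul-tang medium and Palmul-tang high. The vehicle libraries lay on both sides of the CRY2 and TEF breaks and of the lower NR1D1 break.

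**Figure D1:**
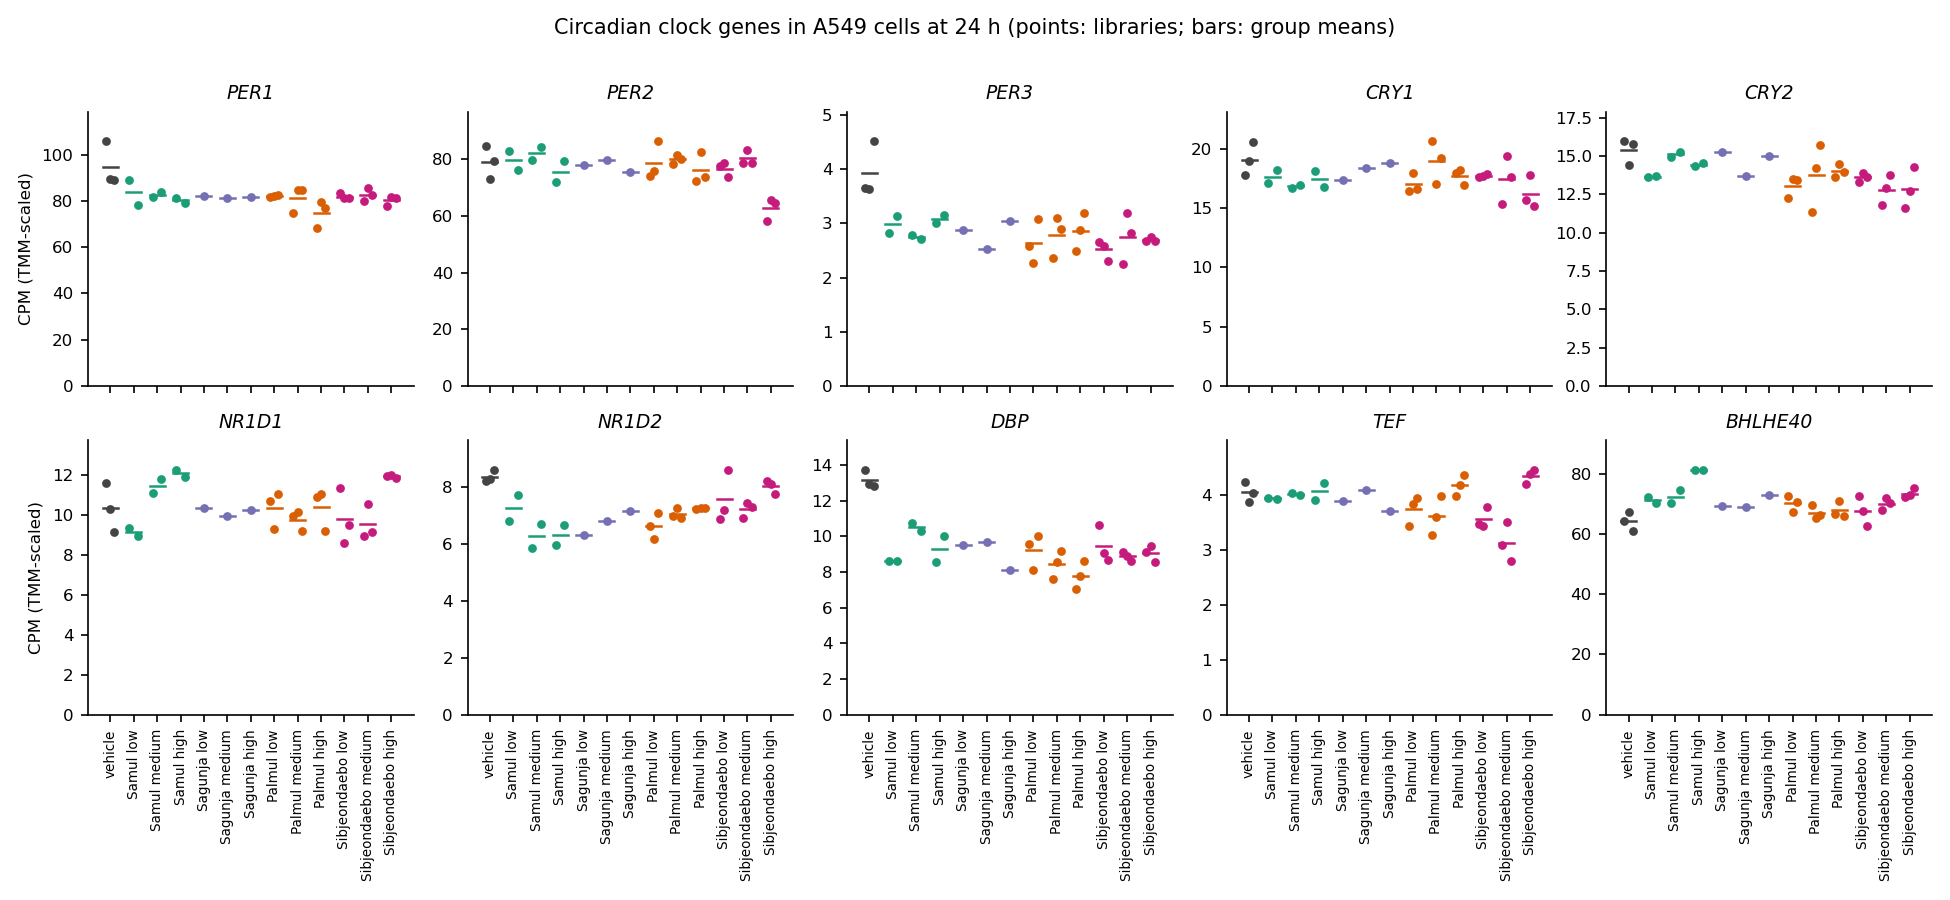
Levels of the 10 clock genes (vertical axes, CPM over TMM-scaled library sizes, from 0) in each of the 30 libraries (points) with group means (bars), for the vehicle and for 3 doses of 4 formulas (horizontal axes). The DBP points of the 3 vehicle libraries (12.8 to 13.7) lie above all extract points, and the PER2 points of Sibjeondaebo-tang high (58.2 to 65.6) lie below those of every other group.

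The first comparison asked which members differed between the high and the low dose of Sibjeondaebo-tang, without any vehicle library. PER2 was lower, and NR1D1 and TEF were higher, at the high dose. This is 2 of 10 members higher and 1 lower, where 38.4% of all 17701 genes tested passed (18.5% higher and 19.9% lower), so the share of members called was near that of all genes and is no result about the members. The median log2 difference was 0.03 over the members and -0.01 over all genes. In bulk RNA, fewer cells with a transcript and less of it per cell cannot be told apart.

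PER2, a repressor in the core loop, stood at 58.2, 65.6 and 64.6 CPM in the high-dose libraries and at 77.5, 78.8 and 73.6 CPM in the low-dose libraries. All 3 high-dose libraries were below all 3 low-dose libraries, and the medium dose (78.8, 83.3 and 78.8 CPM) was not lower than the low dose. On the log2 scale PER2 fell by 0.29 (SE 0.0620), with a 95% interval from -0.42 to -0.16 and an adjusted p of 0.000502 (edgeR quasi-likelihood test, Benjamini-Hochberg over all genes tested, as for all adjusted p-values here). It passed under each of its 11 alternatives. Its paralogs moved less: PER1 was at 80.3 ± 2.19 CPM (SD, n = 3) against 81.9 ± 1.18, a difference of -0.03 (adjusted p 0.754). PER3 was at 2.697 ± 0.0436 CPM against 2.52 ± 0.185, a difference of 0.10 (adjusted p 0.642). Its libraries did not overlap either (2.67 to 2.75 against 2.31 to 2.66 CPM), so a member without a call can also be separate.

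The receptor gene NR1D1 was at 11.97, 12.03 and 11.85 CPM at the high dose and at 11.3, 8.58 and 9.49 CPM at the low dose. The groups did not overlap, though the low-dose libraries were widely spread. NR1D1 rose by 0.28 (SE 0.0926, 95% interval 0.09 to 0.48, adjusted p 0.0147). THRA, whose exons overlap those of NR1D1, rose as well, from 127 ± 5.28 to 146 ± 1.56 CPM (log2 difference 0.21, adjusted p 0.000911), and the part of shared reads in the NR1D1 value was not tested. The related NR1D2 was at 8.04 ± 0.249 against 7.58 ± 0.920 CPM, a difference of 0.09 (adjusted p 0.453).

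TEF, the D-box activator, was at 4.20, 4.38 and 4.46 CPM at the high dose and at 3.46, 3.44 and 3.78 CPM at the low dose. The groups did not overlap, and TEF rose by 0.29 (SE 0.103, 95% interval 0.07 to 0.51, adjusted p 0.0258). The medium dose had the lowest mean, with libraries at 3.08, 3.50 and 2.80 CPM that overlapped those of the low dose. DBP, an activator at the same sites, did not pass, at 9.05 ± 0.447 against 9.44 ± 1.05 CPM (difference -0.06, adjusted p 0.625). CRY1 and CRY2 had differences of -0.13 and -0.08 (adjusted p 0.178 and 0.502). BHLHE40, at 73.4 ± 1.57 against 67.7 ± 4.99 CPM, lay just outside the threshold (difference 0.12, adjusted p 0.0513).

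The calls of NR1D1 and TEF depended on single low-dose libraries. Without Sibjeondaebo-tang low replicate 2 neither passed (adjusted p 0.121 and 0.0761) and 1 member was left. NR1D1 was also lost without low replicate 3 (0.0501), and TEF without low replicate 1 (0.0669), with DESeq2 (0.0978) and with no filter on low counts (0.0703). BHLHE40 passed without low replicate 1 (0.00565), high replicate 1 (0.0331) or high replicate 2 (0.0392), with RLE size factors (0.0432) and with no filter on low counts (0.0339).

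Palmul-tang at the high dose against its low dose gave no call among the members in edgeR (0 of 10, 2 at an unadjusted p under 0.05, and 0 with DESeq2), where 3.47% of all genes passed. PER2 was at 72.5, 82.6 and 73.6 CPM at the high dose and at 74.1, 75.9 and 86.5 CPM at the low dose, so the groups overlapped. Its log2 difference was -0.05, with a 95% interval from -0.18 to 0.08. DBP had the largest difference of the 10, from 9.22 ± 1.00 to 7.79 ± 0.786 CPM (-0.24, SE 0.0920, 95% interval -0.44 to -0.05, adjusted p 0.165). PER1 was lower, and CRY2, NR1D2 and TEF were higher, in every high-dose library than in every low-dose library, but none of these passed (adjusted p 0.306, 0.649, 0.559 and 0.538). The share of all genes separated in this way was not computed, here or in the other comparisons. Lack of overlap is therefore no result about the members. NR1D1 differed by 0.00 (95% interval -0.19 to 0.20).

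Samul-tang, with 2 libraries a dose, also gave 0 of 10 calls in edgeR (2 at an unadjusted p under 0.05, and 0 with DESeq2), against 1.34% of all genes. NR1D1 was at 12.3 and 11.9 CPM at the high dose and at 9.36 and 8.97 CPM at the low dose. The pairs did not overlap, and the difference of 0.40 (SE 0.115, 95% interval 0.16 to 0.64, adjusted p 0.0733) was the largest of any member between the high and low doses of a formula. In a fit to the groups compared it passed, at an adjusted p of 0.0229. BHLHE40 was at 81.4 and 81.3 CPM at the high dose and at 72.4 and 70.5 CPM at the low dose, again without overlap (0.19, 95% interval 0.07 to 0.31, adjusted p 0.0990). The adjusted p of THRA in this comparison was 0.631. NR1D2 had a difference of -0.21 (adjusted p 0.405), opposite in sign to that of NR1D1, and PER2 one of -0.07 (95% interval -0.23 to 0.09).

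**Figure D2:**
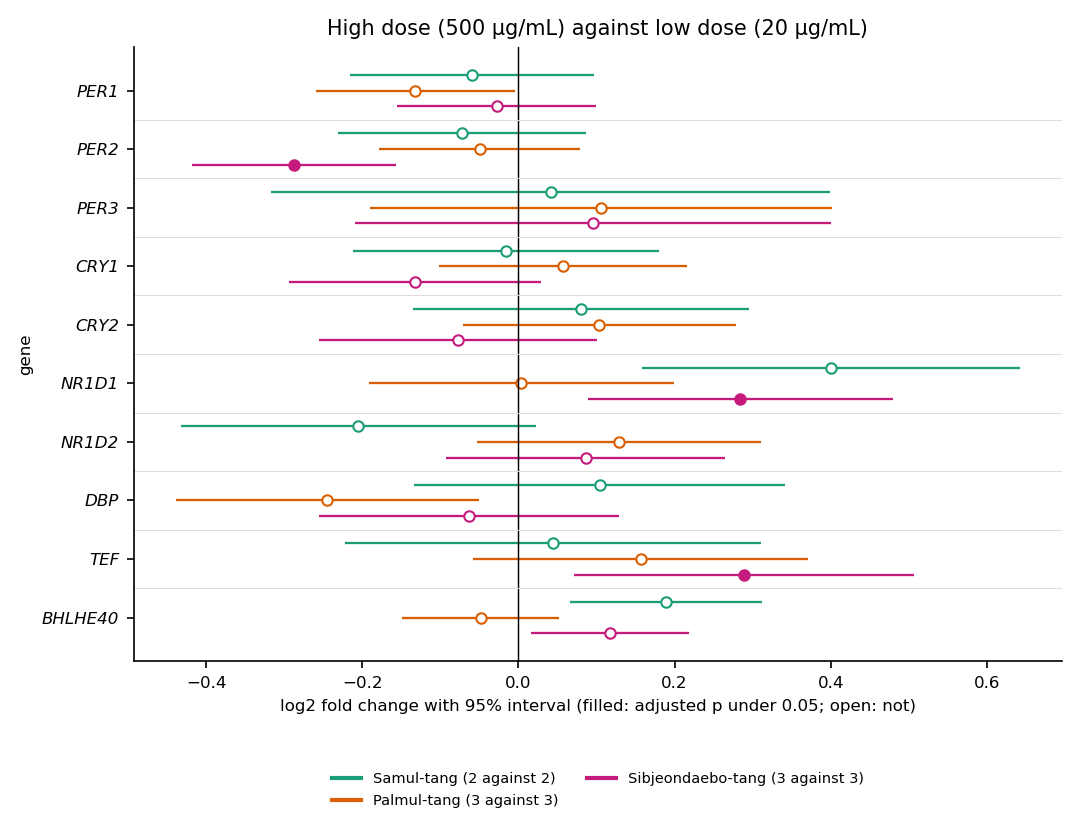
Log2 fold change of the high over the low dose (horizontal axis) of each clock gene (vertical axis) in Samul-tang, Palmul-tang and Sibjeondaebo-tang, with 95% intervals from the edgeR standard errors. Filled points passed an adjusted p of 0.05: PER2 (-0.29), NR1D1 (0.28) and TEF (0.29), all in Sibjeondaebo-tang.

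The medium dose was compared with the low dose over Samul-tang, Palmul-tang and Sibjeondaebo-tang, with the formulas weighted equally. No member passed in edgeR (0 of 10, 0 at an unadjusted p under 0.05, and 0 with DESeq2), and 0.367% of all genes did. Differences ran from -0.07 for TEF (adjusted p 0.800) to 0.07 for NR1D1 (adjusted p 0.775). The interval for PER2 ran from -0.04 to 0.13. It covers the mean over these formulas, where a fall in 1 formula would be diluted, so it cannot be set against the fall at Sibjeondaebo-tang high. In Sibjeondaebo-tang alone, PER2 was at 80.3 ± 2.60 CPM at the medium dose and 76.7 ± 2.71 CPM at the low dose. PER3, the least abundant member, had the widest interval, from -0.16 to 0.21.

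At the matched dose of 500 µg/mL, Sibjeondaebo-tang was compared with Palmul-tang, which lacks its added herbs. PER2 was lower in Sibjeondaebo-tang, with the libraries at 58.2 to 65.6 CPM against 72.5 to 82.6 CPM and no overlap. It fell by 0.28 (SE 0.0623, 95% interval -0.41 to -0.15, adjusted p 0.00103). It was the 1 member of 10 to pass, where 30.3% of all genes did. NR1D1 (0.20, 95% interval 0.01 to 0.40, adjusted p 0.0985), BHLHE40 (0.11, adjusted p 0.0743) and DBP (0.21, adjusted p 0.0837) had higher means in Sibjeondaebo-tang without passing. With no filter on low counts, these and PER1 did pass, for 5 members in all. DBP also passed without Palmul-tang high replicate 3 (adjusted p 0.0297) and BHLHE40 without Palmul-tang high replicate 2 (0.0423).

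The difference between the dose responses of these formulas was tested directly. No member passed in edgeR (0 of 10, 3 at an unadjusted p under 0.05, and 0 with DESeq2), while 14.9% of all genes did. The fall of PER2 with dose was larger in Sibjeondaebo-tang by 0.24 log2 units (difference of responses -0.24, SE 0.0870, 95% interval -0.42 to -0.05, adjusted p 0.0643), so the responses are not shown to differ. PER2 did pass without Palmul-tang high replicate 1 (0.0458) or Palmul-tang low replicate 3 (0.0101). Differences of response for NR1D1 (0.28, adjusted p 0.157) and BHLHE40 (0.17, adjusted p 0.0989) passed without Sibjeondaebo-tang low replicate 1 (0.0246 and 0.0162).

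Palmul-tang against Samul-tang at the high dose called 1 of 10 members, where 0.192% of all genes passed. The library codes begin with 15 in Palmul-tang and with 14 in Samul-tang. The labels do not explain these prefixes, and whatever they mark cannot be told apart from the difference between these formulas. BHLHE40 was at 66.7, 71.0 and 66.1 CPM in Palmul-tang and at 81.4 and 81.3 CPM in Samul-tang, with no overlap. It was lower in Palmul-tang by a log2 difference of -0.26 (SE 0.0529, 95% interval -0.37 to -0.15, adjusted p 0.0250). The call was lost in a fit to only these groups (0.0960), without Samul-tang high replicate 2 (0.270) or 3 (0.262), and without Palmul-tang high replicate 1 (0.108) or 3 (0.107). NR1D1 was lower and NR1D2 higher in every Palmul-tang library, without passing (differences -0.22 and 0.20). DBP had a difference of -0.25 (95% interval -0.47 to -0.03) and PER2 one of 0.01 (95% interval -0.13 to 0.15).

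In the control comparison, several members were lower in cells with extract than in cells with vehicle. The library codes of the vehicle begin with E1 and those of the extracts with 14 or 15. By title, vehicle and extract libraries alike belong to batch E. The labels do not explain the code prefixes, and whatever these mark cannot be told apart from the difference between vehicle and extract. All 4 comparisons below share the same 3 vehicle libraries and are not independent of each other.

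At the low dose, averaged over Samul-tang, Palmul-tang and Sibjeondaebo-tang, 5 of 10 members were lower than vehicle and 1 was higher. Of all genes 42.6% passed, 21.2% lower and 21.3% higher, and the median log2 difference was -0.16 over the members and -0.00 over all genes. DBP had the smallest adjusted p. It was at 13.7, 12.9 and 12.8 CPM in the vehicle libraries and between 8.10 and 10.6 CPM in the 8 low-dose libraries. No library of any extract group reached the vehicle range, and the highest extract value was 10.8 CPM. DBP fell by 0.53 (SE 0.0725, 95% interval -0.69 to -0.38, adjusted p 4.48e-07), and it passed under each of its 16 alternatives. SPHK2, whose exons overlap those of DBP, was at 21.3 ± 2.25 CPM in vehicle, with a difference of -0.10 (adjusted p 0.205).

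PER3 was at 3.66, 3.64 and 4.53 CPM in vehicle and between 2.27 and 3.14 CPM at the low dose, with no overlap. It fell by 0.53 (SE 0.113, 95% interval -0.77 to -0.29, adjusted p 0.000265). PER1 was at 106, 89.5 and 89.1 CPM in vehicle and between 78.4 and 89.0 CPM at the low dose, so the groups were separated by a narrow gap. It fell by 0.20 (SE 0.0499, adjusted p 0.00152), but without vehicle replicate 1, the highest library, the difference was -0.11 and the adjusted p 0.0771. PER2 did not follow its paralogs, at 79.0 ± 5.82 CPM in vehicle (difference -0.01, 95% interval -0.12 to 0.10, adjusted p 0.880).

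NR1D2 fell by 0.23 (SE 0.0714, adjusted p 0.0104) and CRY2 by 0.20 (SE 0.0695, adjusted p 0.0219), the first with and the second without overlap of libraries. CRY1, NR1D1 and TEF did not pass (differences -0.13, -0.09 and -0.11, adjusted p 0.112, 0.398 and 0.336). BHLHE40, at 64.2 ± 3.07 CPM in vehicle, was the only member to rise (0.12, SE 0.0406, adjusted p 0.0186). Without vehicle replicate 1, CRY2 (0.122) and BHLHE40 (0.0571) were lost with PER1, which left 3 members, and without vehicle replicate 3, CRY2 (0.0811) and BHLHE40 (0.151) were lost. BHLHE40 also did not pass in a fit to the groups compared (0.0683).

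At the high dose, 7 of 10 members differed from vehicle in Sibjeondaebo-tang, 6 lower and 1 higher, against 41.8% of all genes (21.8% lower and 20% higher). In Palmul-tang 3 were lower and 0 higher, against 37.1% (18.1% lower and 19% higher). In Samul-tang 3 were lower and 1 higher, against 29.2% (13.9% lower and 15.3% higher). DBP fell in each, by 0.54, 0.76 and 0.50 (adjusted p 9.48e-06, 1.34e-07 and 0.000270), and so did PER1, by 0.24, 0.34 and 0.24 (adjusted p 0.00195, 5.81e-05 and 0.00800). Members' medians were -0.24, -0.12 and -0.11, beside -0.03, -0.00 and -0.01 over all genes.

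PER2 fell against vehicle in Sibjeondaebo-tang by 0.33 (SE 0.0626, adjusted p 8.57e-05). In Palmul-tang and Samul-tang its differences were -0.05 and -0.06 (adjusted p 0.551 and 0.548). PER3 fell in Sibjeondaebo-tang by 0.54 (adjusted p 0.00216) and in Palmul-tang by 0.46 (adjusted p 0.00814), and in Samul-tang its difference was -0.35 (adjusted p 0.0827). CRY1 and CRY2 fell in Sibjeondaebo-tang by 0.24 and 0.26 (adjusted p 0.0143 and 0.0154). NR1D2 fell in Samul-tang by 0.40 (SE 0.0983, adjusted p 0.00223), where its libraries were at 5.98 and 6.68 CPM against 8.24 to 8.61 CPM in vehicle. BHLHE40 rose in Samul-tang by 0.34 (SE 0.0533, adjusted p 1.68e-05) and in Sibjeondaebo-tang by 0.19 (adjusted p 0.00172).

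Several of these calls rested on single libraries. In Sibjeondaebo-tang, CRY1 was lost without vehicle replicate 3 (0.0956) or high replicate 1 (0.0851) or 3 (0.121), and CRY2 without vehicle replicate 1 (0.0667) or high replicate 1 (0.160, with a difference of -0.17) or 2 (0.0633), while NR1D1 passed without vehicle replicate 1 (0.0260), with no filter on low counts (0.0274) and in a fit to the groups compared (0.0425). PER1 in Sibjeondaebo-tang still passed without vehicle replicate 1, with a difference of -0.15 (0.0385). In Palmul-tang, PER3 was lost without vehicle replicate 3 (0.0630) or high replicate 1 (0.0627). In Samul-tang, PER1 was lost without vehicle replicate 1 (0.0796, with a difference of -0.15) or high replicate 3 (0.0854) and NR1D2 without high replicate 2 (0.0614), and NR1D1 passed without vehicle replicate 1 (0.0422).

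**Figure D3:**
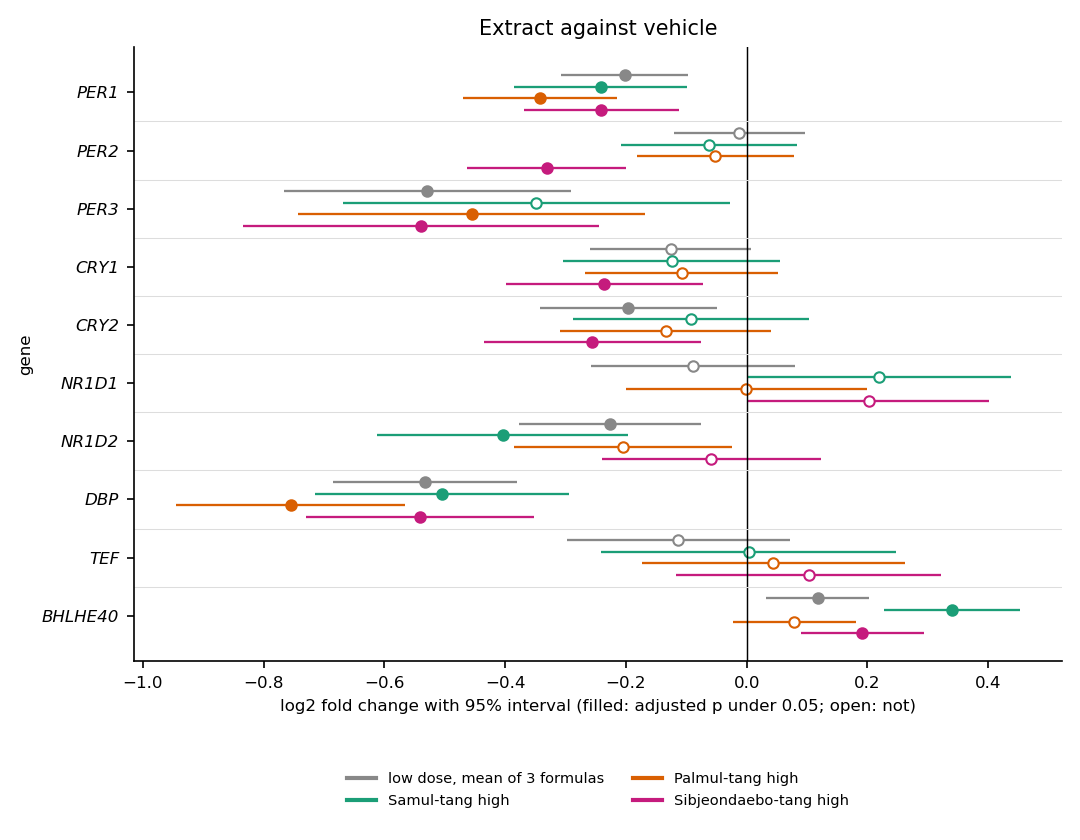
Log2 fold change against vehicle (horizontal axis) of each clock gene (vertical axis) for the mean of 3 low-dose groups and for the high dose of Samul-tang, Palmul-tang and Sibjeondaebo-tang, with 95% intervals. Filled points passed an adjusted p of 0.05. DBP is filled on the negative side in all 4 comparisons, which share the vehicle libraries.

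Sagunja-tang, with a single library per dose, had no test. At the low, medium and high dose its PER2 values were 77.9, 79.8 and 75.4 CPM, its NR1D1 values 10.3, 9.95 and 10.3 CPM, and its TEF values 3.88, 4.09 and 3.70 CPM. Its DBP values of 9.53, 9.70 and 8.09 CPM lay within the range of the other extract libraries (7.03 to 10.8 CPM). BHLHE40 was at 69.2, 69.1 and 73.0 CPM.

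The other genes of the pathway were counted in 3 lists: core loop and related transcription factors (10 of 11 tested, RORB not), modifiers of PER and CRY proteins (9 tested) and clock-controlled outputs (6 tested). Between the high and low doses of Sibjeondaebo-tang, 18.5% of all genes rose and 19.9% fell. In the lists, 0 of 10 core genes rose and 1 fell, 3 of 9 modifiers rose and 1 fell, and 1 of 6 outputs rose and 3 fell. The core gene was HLF, a D-box activator like TEF, which fell from 8.93 ± 0.959 to 6.64 ± 0.474 CPM (-0.43, SE 0.0938, adjusted p 0.000499). TEF and HLF thus moved in opposite directions between the same libraries. BMAL1, the gene that NR1D proteins repress, was at 28.6 ± 0.291 against 30.04 ± 2.15 CPM and did not pass.

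Of the modifiers, CIPC, an inhibitor of CLOCK, fell from 25.0 ± 0.104 to 21.1 ± 1.09 CPM (-0.24, adjusted p 0.000802). TIMELESS, which also acts at replication forks, rose from 66.5 ± 1.61 to 73.9 ± 3.33 CPM (0.15, adjusted p 0.00647). The deubiquitinase gene USP2 rose by 0.19 (adjusted p 0.00812), and FBXW11, a ubiquitin ligase subunit that takes part in PER turnover, by 0.14 (adjusted p 0.0237). Of the outputs, NAMPT, an enzyme of NAD synthesis, rose by 0.21 (adjusted p 5.86e-05). KLF9 and TSC22D3, both known targets of the glucocorticoid receptor, fell by 0.25 and 0.12 (adjusted p 7.87e-05 and 0.0133). PPARA, a nuclear receptor of lipid metabolism, fell by 0.22 (adjusted p 0.0473).

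In Palmul-tang, 1 core gene fell (HLF, by 0.38, from 8.66 ± 0.384 to 6.67 ± 0.789 CPM, adjusted p 0.0123). One modifier, TIMELESS, rose by 0.19 (adjusted p 0.00885), and among the outputs KLF9 fell by 0.34 (adjusted p 9.18e-06). In Samul-tang 0 of 10 core genes and 0 of 9 modifiers passed in edgeR (1 of each at an unadjusted p under 0.05), and of the 6 outputs 1 fell, KLF9, by 0.27 (adjusted p 0.0101). Between the medium and low doses, 0 genes of the 3 lists passed in edgeR, and 0 had an unadjusted p under 0.05. At the high dose, NFIL3 was higher in Sibjeondaebo-tang than in Palmul-tang by 0.19 (adjusted p 0.0370) and BMAL1 lower, at 28.6 ± 0.291 against 31.8 ± 1.73 CPM (-0.15, adjusted p 0.0407). Among all genes, 3.47% passed between the doses of Palmul-tang, 1.34% in Samul-tang and 0.367% between the medium and low doses. Between Sibjeondaebo-tang and Palmul-tang at the high dose, 30.3% passed.

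Against vehicle, 21.3% of all genes were higher and 21.2% lower at the low dose of the extracts. In the lists, 4 of 10 core genes were higher and 2 lower, 3 of 9 modifiers higher and 4 lower, and 5 of 6 outputs higher and 0 lower. NFIL3, the D-box repressor, was at 8.57 ± 0.415 CPM in vehicle and at 12.3 ± 0.101, 12.2 ± 0.607 and 12.7 ± 0.872 CPM in low-dose Samul-tang, Palmul-tang and Sibjeondaebo-tang (0.53, SE 0.0647, adjusted p 7.81e-08). It rose where DBP, the activator at the same sites, fell by the same size. CLOCK rose by 0.23 (adjusted p 0.000766) and BMAL1 by 0.18 (adjusted p 0.00308), while NPAS2 fell by 0.19 (adjusted p 0.0105). BMAL1 was at 27.3 ± 2.21 CPM in vehicle. At the high dose of Samul-tang, Palmul-tang and Sibjeondaebo-tang it was at 33.6 ± 0.393, 31.8 ± 1.73 and 28.6 ± 0.291 CPM.

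The casein kinase genes CSNK1E and CSNK1D, whose products phosphorylate PER proteins, fell by 0.35 and 0.20 (adjusted p 7.26e-08 and 6.14e-06). BTRC and FBXW11, subunits of the ligases that bind phosphorylated PER, rose by 0.40 and 0.22 (adjusted p 3.72e-08 and 0.000105). Of the outputs, KLF9 rose from 35.5 ± 2.07 CPM in vehicle to 46.0 ± 2.21, 45.2 ± 0.972 and 43.7 ± 0.561 CPM (0.34, adjusted p 3.53e-08). At the high dose of Samul-tang, Palmul-tang and Sibjeondaebo-tang, KLF9 was at 38.2 ± 0.313, 35.7 ± 0.447 and 36.8 ± 1.68 CPM. KLF10, PPARA and NAMPT rose by 0.34, 0.47 and 0.19 (adjusted p 5.95e-06, 8.23e-06 and 1.56e-05). The library prefix that differs between vehicle and extract touches these values as it does those of the members.

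**Figure D4:**
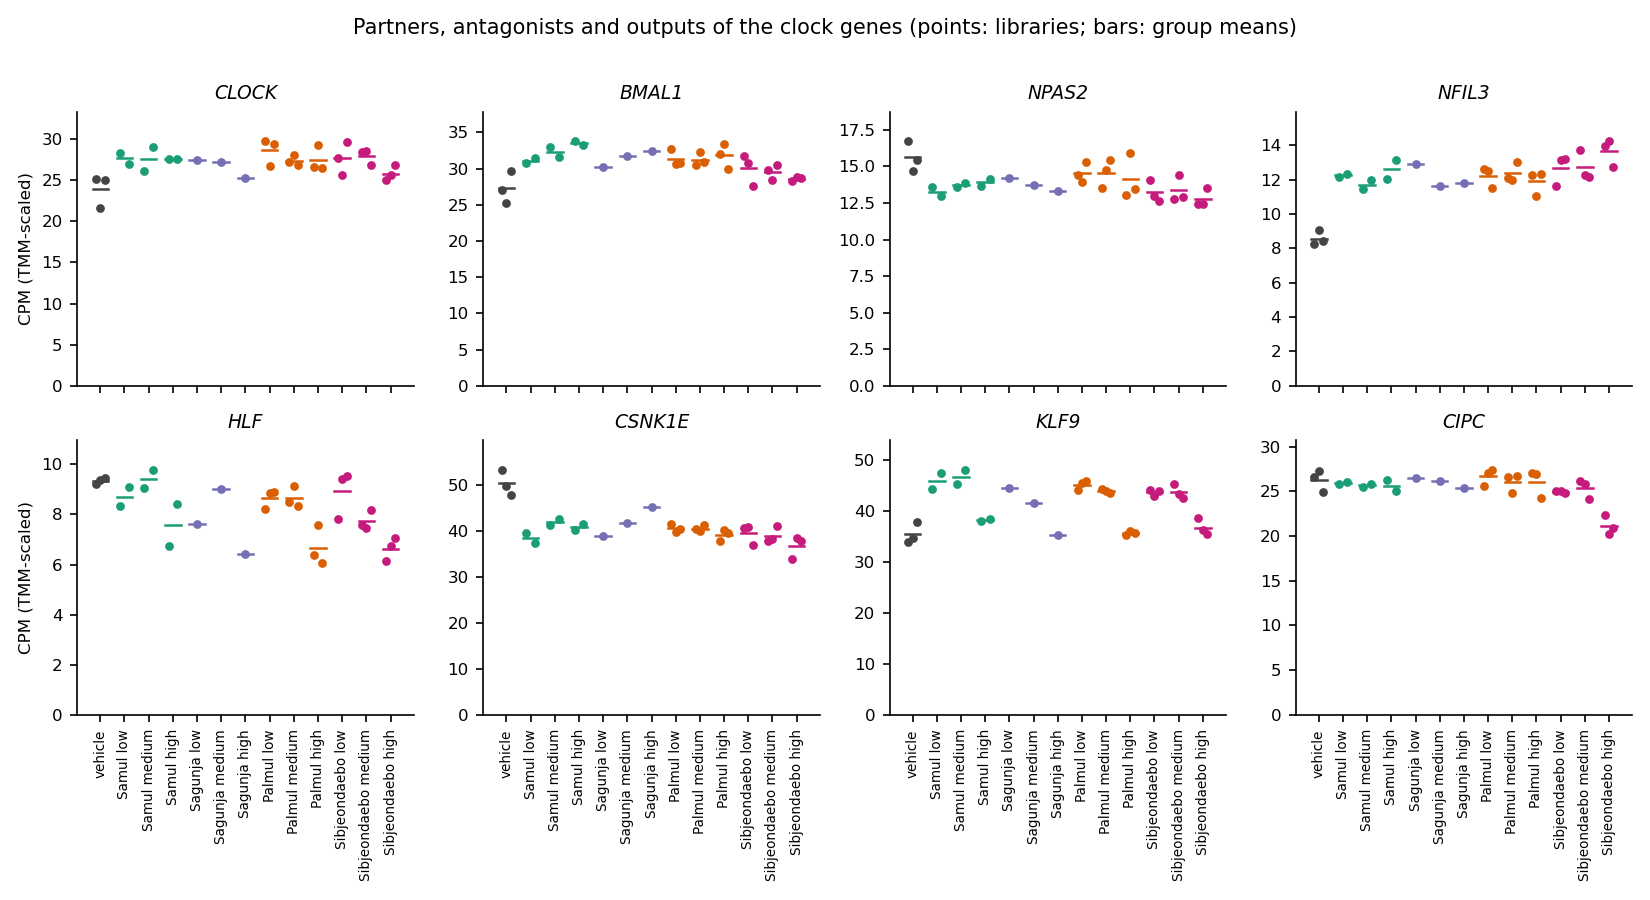
Levels of 8 other genes of the clock pathway (vertical axes, CPM over TMM-scaled library sizes, from 0) in each of the 30 libraries (points) with group means (bars), by formula and dose (horizontal axes). NFIL3 is lower in vehicle (8.57 CPM) than in the extract groups. HLF and KLF9 have lower means at the high than at the low dose of each formula, with 1 library per dose in Sagunja-tang. In Samul-tang the HLF points of these doses overlap.

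Members varied together only in part. Over the 13 group means PER1 correlated with DBP at r = 0.847 and with PER3 at r = 0.676, and NR1D1 with BHLHE40 at r = 0.621. These are descriptions, since the groups share libraries' depth scaling and the vehicle group weighs in the first 2. Within groups, over 27 libraries, PER1 and PER2 correlated at 0.601 and NR1D1 and BHLHE40 at 0.612. The members with the largest spread of group means were DBP, PER3 and NR1D2 (SD 0.181, 0.143 and 0.121 log2 units).

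Among 11027 genes, those with group means most like DBP over 13 groups were A4GALT (r = 0.954), GATA2 (0.950) and SMOX (0.947). Over the 10 groups with replicates A4GALT (0.965) and GATA2 (0.961) again ranked highest, followed by FAM50A (0.954). For PER3 they were SETD1A (0.924), KMT5A (0.916) and ZNF142 (0.915) over 13 groups and RHBDF1 (0.975), ZNF362 (0.963) and SP2 (0.960) over 10. For NR1D2 they were FAM53C (0.883), INTS5 (0.866) and CCDC85C (0.855) over 13 groups and EMP2 (0.923), COQ8B (0.921) and CHPF2 (0.915) over 10. The genes named for PER3 and NR1D2 thus differed between the 2 sets of groups.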

How the data were processed

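Total RNA with directional library preparation was sequenced from A549 cells, per the labels' protocols. The authors deposited expected counts per gene, made with FastQC 0.11.9, Trim Galore 0.6.5, STAR 2.7.3a and RSEM 1.3.3 on GRCh38, per the submitters' processing notes. RSEM divides a read that fits several genes among them, and 8.50% to 9.82% of values per library were not whole. The annotation release and strand setting of the counting are not given in the sources used here. Library codes in the labels gave 30 columns, and 240 columns of other samples were not used.

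Counts were rounded to whole numbers. One edgeR 4.0.16 model (R 4.3.3, limma 3.58.1) with a mean for each of 13 groups was fitted after filterByExpr, which kept 17701 genes, and TMM scaling (factors 0.923 to 1.05). It had 17 residual degrees of freedom, a biological coefficient of variation of 0.0496 and robust quasi-likelihood tests. Benjamini-Hochberg adjustment ran over all genes in each of 11 comparisons, with a threshold of 0.05. Standard errors are the log2 change over the square root of F, and 95% intervals use these and are not adjusted. For likeness of pattern, genes had a mean log2 CPM of at least 2, and 0.5 was added before taking logs.

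The depth of 23986637 to 35159898 counts and the SD between libraries set the precision. Symbols were found for 56558 gene rows. All members are named. From each pathway list up to 4 genes with the smallest adjusted p in a comparison could be named. One gene of the output list is not reported here. The members and lists were chosen with earlier results of these data known, and the genes overlapping members were added after the files were seen. Alternatives were DESeq2 1.42.0, scaling by RLE, testing without the low-count filter, a fit restricted to the groups of a comparison, a block for replicate number and the omission of each library in turn.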

Additional observations from a re-analysis of the deposited data

How the results depend on the processing

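The 110 differences of single members (10 members in 11 comparisons) were recomputed under 1367 alternatives. The side of the threshold was kept in 1313, a call was lost in 28 and gained in 26. Of the called differences 0 changed sign, while some uncalled ones near 0 did. Counts of members called moved by over 1.5 times as follows, and the cause was not tested. With no filter on low counts, 1 member (NR1D1, adjusted p 0.00755) passed between the doses of Samul-tang in place of 0, 5 in place of 1 between Sibjeondaebo-tang and Palmul-tang at the high dose, and 1 (PER2, 0.0368) in place of 0 in the difference of dose responses. In a fit to only the groups compared, 1 (NR1D1, 0.0229) passed between the doses of Samul-tang, and 0 between Palmul-tang and Samul-tang at the high dose. With the replicate number as a block, 1 (NR1D1, 0.0498) passed between the doses of Samul-tang. Under the block, BHLHE40 between the doses of Sibjeondaebo-tang (0.0483), NR1D2 in Palmul-tang against vehicle (0.0446) and PER3 in Samul-tang against vehicle (0.0354) were gained as well. Libraries of the same number did not deviate together (median correlation 0.00614 over 111 pairs, from -0.122 to 0.0886, beside -0.148 to 0.137 over 216 other pairs), so the numbers were not taken as pairs. Leaving out single libraries gave 1 to 4 members called between the doses of Sibjeondaebo-tang, 3 to 6 at the low dose against vehicle, 5 to 7 for Sibjeondaebo-tang, 2 to 3 for Palmul-tang and 3 to 4 for Samul-tang at the high dose against vehicle, 1 to 2 between Sibjeondaebo-tang and Palmul-tang, 0 to 1 between Palmul-tang and Samul-tang, and 0 to 2 in the difference of dose responses. It gave 0 throughout between the doses of Palmul-tang and Samul-tang and between the medium and low doses. Where a Samul-tang group was left with 1 library, that library was assumed to vary like the other groups. Depth limits PER3 and TEF most, with as few as 73 and 91 counts in a library.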
